A study of Mus musculus with 12 samples.

Results

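The mesenchymal state genes described here are 10 genes taken by name from a table of 54393 genes: Vim, Fn1, Acta2, Tagln, Pdgfra, Col1a1, Col1a2, Col3a1, Prrx1 and Snai2. All 10 were found, and 9 of them carry a test by the authors, as do 21541 genes in all. Col3a1 has no test. The cells were N2a, a mouse neuroblastoma cell line, with a Flp-In site that carries a doxycycline-inducible, FLAG-tagged Sap30bp cDNA, together with the rtTA activator that doxycycline switches on. SAP30BP is a nuclear protein that takes part in pre-mRNA splicing. The cDNA of the withoutExon3 line lacks exon 3 of Sap30bp, and that of the withExon3 line holds it. Each line was given a non-targeting siRNA pool (control), an siRNA against Sap30bp (knockdown), or that siRNA together with doxycycline (rescue), which makes 6 groups of 2 biological replicates and 12 polyA RNA libraries. Medium with or without doxycycline was given at 24 hours and cells were taken at 72 hours, when the wells of a condition were pooled. Every group carries the inducible cDNA. Doxycycline was never given with the control siRNA, so its own effect and that of the induced isoform cannot be told apart. Isoform and line are one factor and cannot be told apart, and the labels do not say whether a line is a single clone.

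Neuroblastoma cells are known in an adrenergic state, with genes of sympathetic neurons, and in a mesenchymal state, in which genes of neural crest, fibroblasts and contractile cells are on. Vimentin filaments, fibronectin in the matrix, the PDGF receptor alpha and the factors PRRX1 and SNAI2 are often used as signs of the second state. Smooth muscle actin (Acta2) and transgelin (Tagln) are contractile genes that serum response factor switches on through the CArG box, and collagens I and III are the fibrils of fibroblast matrix.

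The sequences behind the gene values and the splicing values follow. In the GENCODE annotation of GRCm38, Vim lies on chromosome 2 from 13573927 to 13582826, Fn1 on chromosome 1 from 71585520 to 71653200, Acta2 on chromosome 19 from 34241090 to 34255590 and Pdgfra on chromosome 5 from 75152292 to 75198215. Snai2 lies on chromosome 16 from 14705852 to 14709385 and Tagln on chromosome 9 from 45929619 to 45936058. The Fn1 EDA exon is shown because it had the lowest mean inclusion among the exons of the 10 genes with a value in every library. It is a coding exon of 270 nt on the minus strand, at chr1:71603660-71603929 of GRCm38, matched to the mm9 exon of the splicing table by its length and its distance from the EDB exon. The capitals mark its first and last 3 bases, where splicing joins it to its neighbours.
Fn1 EDA exon: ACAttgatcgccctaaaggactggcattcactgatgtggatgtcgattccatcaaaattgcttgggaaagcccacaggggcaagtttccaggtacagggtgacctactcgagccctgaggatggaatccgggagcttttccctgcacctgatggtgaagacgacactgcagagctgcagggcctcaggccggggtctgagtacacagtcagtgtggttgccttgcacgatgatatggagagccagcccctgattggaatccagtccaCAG

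CArG-like boxes before the RefSeq start of Acta2 (GRCm38.p6, minus strand) are shown because Acta2 had the largest difference between the lines among the 10 genes. The search was for CC, then 6 bases of which at most 1 is C or G, then GG, which reads alike on both strands, in the 250 bases before the start. Acta2 held 2 such boxes, at -84 to -75 and at -34 to -25 from the start. In 32851 promoters of the same length, 8.59% held at least 1 box and 0.67% held at least 2. With no C or G allowed among the 6 bases, the strict CArG box, Acta2 held 0, while 1.47% of the promoters held at least 1. The GENCODE model of Acta2 starts further upstream and counts most of this window as part of its first exon. A match is a description of the letters and no measurement of binding. Promoters of 6 of the 10 genes were in the table, and of these Col1a2 held 1 box while Vim, Pdgfra, Prrx1 and Col3a1 held 0. The capitals mark the boxes.
Acta2 box 1 (chr19:34255438-34255467): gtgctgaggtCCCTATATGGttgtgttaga
Acta2 box 2 (chr19:34255388-34255417): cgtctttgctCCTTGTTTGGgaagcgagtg

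Gene levels are reads scaled for gene length and library size (RPKM), with 1 value per group in the authors' deposited table, so replicate spread is not visible and the read depth is unknown. Log2 fold changes, p-values and false discovery rates (FDR) are the authors' own, and a gene was called at an FDR under 0.05. In bulk RNA, fewer cells that express a gene and less RNA per cell cannot be told apart. Sap30bp itself was listed in the authors' deposited table with RPKM values of 40.03, 21.71 and 196.5 for control, knockdown and rescue of the withoutExon3 line, and of 33.59, 18.6 and 141.3 for the same groups of the withExon3 line. The label neuroblastoma was checked on 22 adrenergic markers, of which 18 reached 1 RPKM in at least 1 group of the authors' deposited table, while Th stayed at or below 0.52. Of 12 fibroblast markers, 4 reached 1 RPKM there, and their summed level was between 62 and 157.8 RPKM in the authors' deposited table, most of it Fbln1. Without Fbln1 the sum was between 1.78 and 20.31 RPKM in the authors' deposited table, highest in the withExon3 control, where Col6a1 made up 17.51. The part of these markers in the results was not tested. Of the same 12 markers, Dcn, Lum, Postn, Fap and Dpt stayed at or below 0.29 RPKM in the authors' deposited table. Fbln1 and Col6a1 were among the 4 that reached 1 RPKM. Of 9 pericyte and smooth muscle markers, 2 reached it, and their summed level in the authors' deposited table was between 15.14 and 21.52 RPKM, most of it Mcam.

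The 10 genes divided by level. Of them, 4 had in the authors' deposited table a mean of at least 1 RPKM over the 6 groups, and 3 had a mean over 30 RPKM: Vim, Fn1 and Acta2. Col3a1, a fibrillar collagen, was listed at 0 in all 6 groups of that table. Col1a1, Col1a2 and Prrx1 were above 0 but under 0.25 RPKM in every group of it. The data therefore go with the label for Vim and Fn1 in both lines. For Acta2 they do so mainly in the withExon3 line, at 40.91 to 93.93 RPKM against 1.07 to 8.5 in the other line. They go against it for the fibrillar collagens and for Prrx1. Tagln stayed at or below 0.88 RPKM, Snai2 at or below 1.23 and Pdgfra at or below 3.57 in the authors' deposited table. The cells are therefore not named mesenchymal here.

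**Figure D1:**
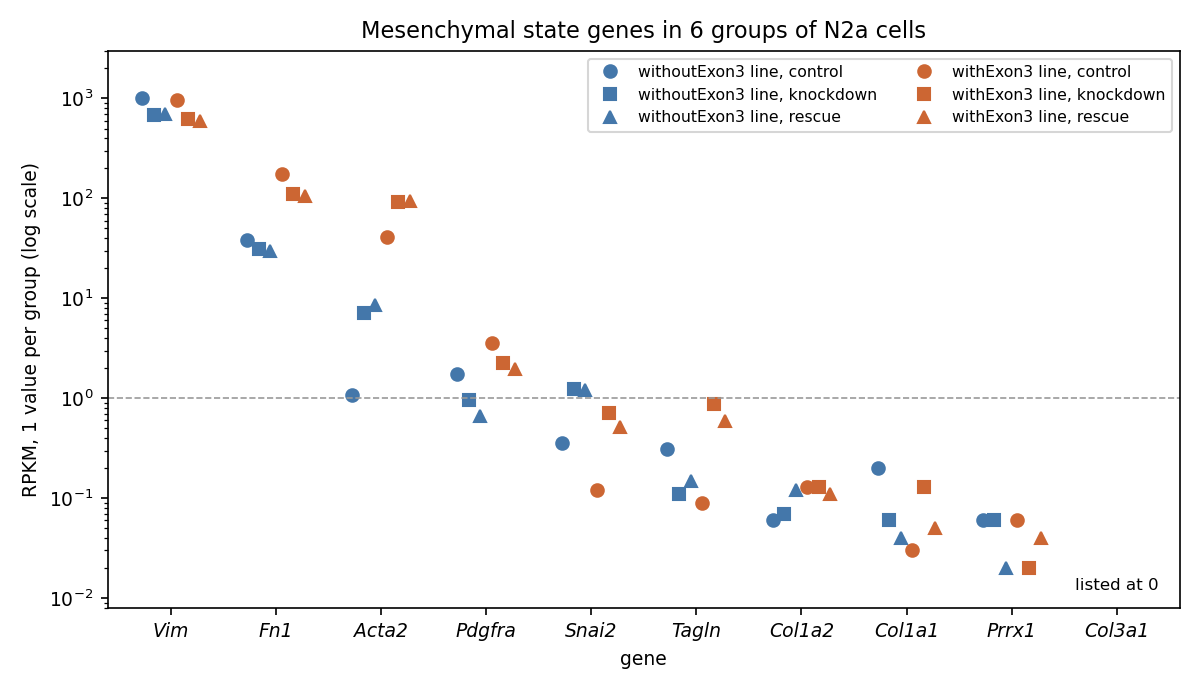
RPKM on a log scale for the 10 genes, 1 point per group from the authors' deposited table, with colour for the line and shape for control, knockdown and rescue; the dashed line is at 1 RPKM. Vim was at 998.9 and 974.8 RPKM in the controls, the lines stood apart in Acta2 and Fn1, and Col3a1, listed at 0, has no point on the log axis.

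The first comparison was between the lines, in control, knockdown and rescue cells, and these 3 comparisons share no library with each other. Acta2, the smooth muscle actin, was higher in the withExon3 line in all 3. In the authors' deposited table Acta2 had RPKM values of 1.07, 7.17 and 8.5 for control, knockdown and rescue of the withoutExon3 line, and of 40.91, 92.35 and 93.93 for those of the withExon3 line. The lowest group of the withExon3 line thus stood above the highest group of the other line, and the share of all genes with such a gap is not given here. The RPKM ratio between lines was 38.2 for control, 12.9 for knockdown and 11.1 for rescue, from the authors' deposited table. The log2 fold changes in the authors' deposited table were 5.17 for control (FDR 0.000148), 3.78 for knockdown (FDR 0.0103) and 3.43 for rescue (FDR 0.0219). Acta2 shares long stretches with Actg2, Acta1 and Actb, so its reads could be assigned to a paralog and its level is uncertain. Actg2, the enteric smooth muscle actin, was higher in the same line in the authors' deposited table, at 95.88 against 16.45 RPKM in control.

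Fibronectin (Fn1), the matrix glycoprotein that integrins bind, was also higher in the withExon3 line in control cells. In the authors' deposited table Fn1 was at 38.03, 31.16 and 29.84 RPKM in control, knockdown and rescue of the withoutExon3 line and at 173.9, 110.3 and 106.2 RPKM in the withExon3 line. The groups of the lines did not overlap, with 1 value per group, and the share of all genes of which this holds is not given here. The log2 fold change in the authors' deposited table was 1.91 for control (FDR 0.0218), 1.43 for knockdown (FDR 0.175) and 1.65 for rescue (FDR 0.0755), so only the control difference was called. The line difference of Fn1 did not pass the test of a change between control and knockdown (unadjusted p of 0.53, adjusted p of 1) or between knockdown and rescue (unadjusted p of 0.773, adjusted p of 1), from the signed z of the authors' edgeR p-values.

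Pdgfra, the receptor for PDGF ligands, was called higher in the withExon3 line in control and knockdown cells. Its levels in the authors' deposited table were 1.74, 0.96 and 0.67 RPKM in the withoutExon3 line and 3.57, 2.25 and 1.97 RPKM in the withExon3 line. The log2 fold changes between lines in the authors' deposited table were 1.17 for control (FDR 0.0018), 1.03 for knockdown (FDR 0.0186) and 0.94 for rescue (FDR 0.0507). The rescue value lies just outside the threshold.

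In all, 3 of the 9 tested genes were called between lines in control, beside 3.73% of all tested genes, then 2 in knockdown, beside 2.9%, and 1 in rescue, beside 3.29%, and each was higher in the withExon3 line. Acta2 was the 1 gene called in all 3 conditions, beside 1.47% of all tested genes. Vim, the intermediate filament protein of mesenchymal and of many cultured cells, was not called in any of the 3. Its levels in the authors' deposited table were 998.9, 688.4 and 696.8 RPKM in the withoutExon3 line and 974.8, 619.6 and 594.6 RPKM in the withExon3 line. The log2 fold changes of Vim between lines in the authors' deposited table were 0.14, -0.07 and -0.13, with FDR values of 1 in each. Snai2, a zinc finger repressor of epithelial genes, had negative log2 fold changes between lines in the authors' deposited table, -1.62 for control (FDR 0.236), -0.81 for knockdown (FDR 0.576) and -1.11 for rescue (FDR 0.373), and was not called.

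The second comparison asked what Sap30bp knockdown did to the 10 genes. Snai2 rose in each line. According to the authors' deposited table it stood at 0.36 RPKM in control and 1.23 in knockdown cells of the withoutExon3 line, and at 0.12 and 0.71 RPKM in those of the withExon3 line. The log2 fold changes in the authors' deposited table were 1.75 (FDR 0.044) and 2.55 (FDR 0.00643). Both knockdown groups stood above both controls, and all of these levels are low. How many of all genes do so is not given here.

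Snai2 was the 1 gene of the 9 called in each line, beside 2.26% of all tested genes in the withoutExon3 line and 3.68% in the withExon3 line. In both lines with one sign, 1.57% of all tested genes were called. At an unadjusted p under 0.05, 3 of the 9 passed in the withoutExon3 line, beside 11.9% of all tested genes, and 5 in the withExon3 line, beside 13.6%. The median log2 fold change of the 9 genes in the authors' deposited table was -0.24 and 0.08 in those lines, beside a median over all tested genes of -0.0013 and 0.

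Acta2 did not pass in either line. Its RPKM ratio of knockdown over control in the authors' deposited table was 6.7 in the withoutExon3 line and 2.26 in the withExon3 line. The log2 fold changes in the authors' deposited table were 2.55 (FDR 0.164) and 1.16 (FDR 0.677). Tagln, an actin-binding protein of smooth muscle, was at 0.31 and 0.11 RPKM in control and knockdown of the withoutExon3 line and at 0.09 and 0.88 RPKM in the other line, in the authors' deposited table. Its log2 fold changes in the authors' deposited table had opposite signs, -0.6 (FDR 1) and 2.8 (FDR 0.161), and neither passed.

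Vim had a lower value after knockdown in each line, with log2 fold changes in the authors' deposited table of -0.52 (FDR 0.549) and -0.73 (FDR 0.201), neither of which passed. For Pdgfra the log2 fold changes in the authors' deposited table were -0.71 (FDR 0.213) and -0.85 (FDR 0.0588). For Fn1 they were -0.29 (FDR 0.982) and -0.77 (FDR 0.607) in the authors' deposited table. When the p-values of both lines were combined, a step added after the data were seen, Snai2 (adjusted p = 2.38e-05), Pdgfra (adjusted p = 0.00231) and Vim (adjusted p = 0.0401) passed and Acta2 did not (adjusted p = 0.0522). The same rule called 10.6% of all tested genes, so it calls far more than the FDR in each line.

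The knockdown change was then compared between the lines by the difference of the signed z of the authors' p-values, adjusted over all tested genes with the Benjamini-Hochberg method. By this test 0 of the 9 genes differed, beside 0.00928% of all tested genes, and every adjusted p was 1. At an unadjusted p under 0.05, 1 gene passed, beside 1.25% of all tested genes. This was Tagln, with an unadjusted p of 0.038 from the authors' edgeR p-values and a knockdown log2 fold change higher by 3.4 in the withExon3 line.

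**Figure D2:**
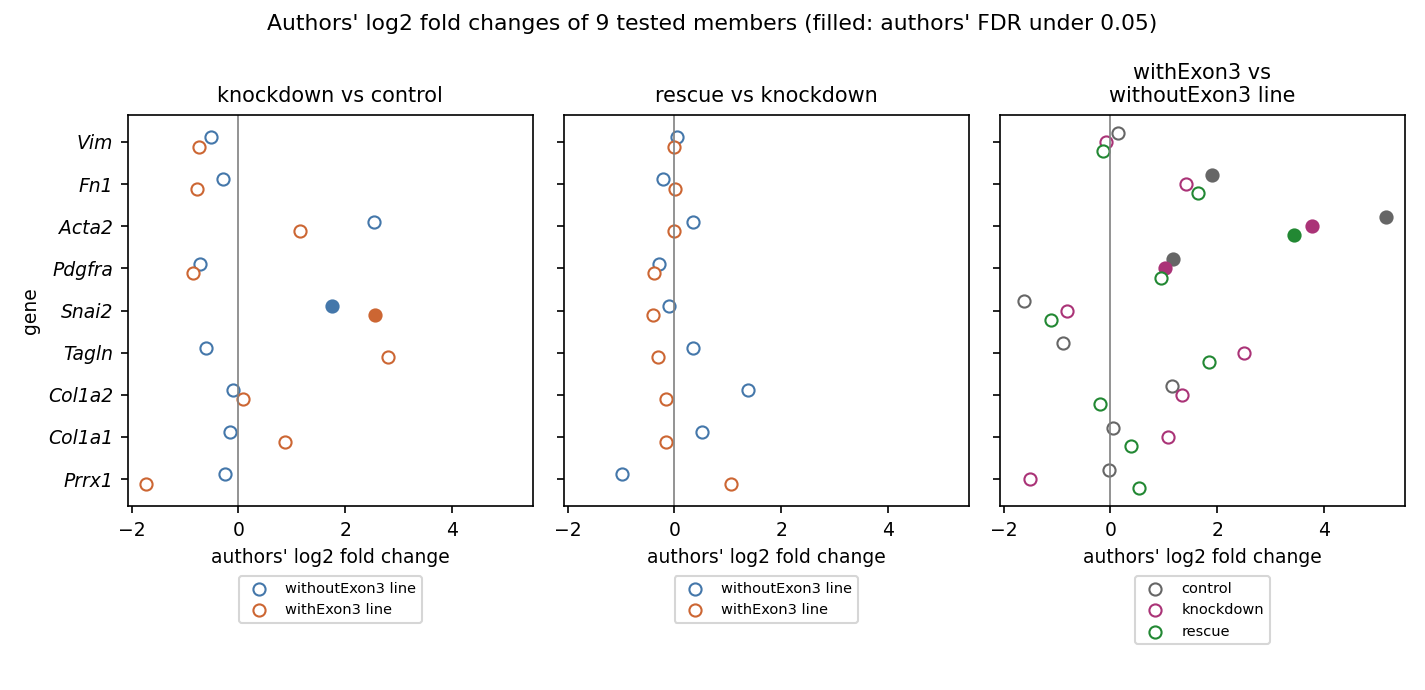
Log2 fold changes from the authors' deposited table for the 9 tested genes, in knockdown against control, rescue against knockdown and one line against the other; filled points have an FDR under 0.05. Snai2 is filled in both lines after knockdown, no point is filled for rescue, and Acta2 is filled in all 3 conditions between lines.

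The third comparison asked whether either isoform moved the 10 genes away from their knockdown level. By the authors' FDR, 0 of the 9 tested genes were called in the withoutExon3 line, beside 0.0232% of all tested genes, and 0 in the withExon3 line, beside 0.00464%, and 0 passed at an unadjusted p under 0.05 in either line by the authors' edgeR p-values, beside 5.98% and 1.33% of all tested genes. The smallest p in the authors' deposited table was 0.0679 for Col1a2 in the withoutExon3 line and 0.18 for Pdgfra in the withExon3 line. Snai2 was at 1.21 RPKM after rescue in the withoutExon3 line and at 0.52 RPKM in the withExon3 line in the authors' deposited table, with log2 fold changes against knockdown of -0.1 and -0.41. Vim after rescue differed from knockdown by a log2 fold change of 0.05 in the withoutExon3 line and of -0.01 in the withExon3 line in the authors' deposited table. Acta2 differed by 0.35 and 0.0012, and Fn1 by -0.21 and 0.01, on the log2 scale in the authors' deposited table. A p above the threshold does not show that rescue left these genes at the knockdown level, and the authors' deposited table holds no error for these values. The rescue effect did not pass the test of a difference between lines for any of the 9 genes (adjusted p = 1 for each), beside 0.00928% of all tested genes. At an unadjusted p under 0.05 the count was 0 as well, beside 1.37% of all tested genes.

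Rescue was also compared with control, with the same control libraries as the knockdown comparison. Pdgfra was lower after rescue in the withExon3 line, with a log2 fold change of -1.24 in the authors' deposited table (FDR 0.00165), and had -1.01 (FDR 0.063) in the withoutExon3 line. It was the 1 gene called in the withExon3 line, beside 2.27% of all tested genes, and 0 of the 9 were called in the withoutExon3 line, beside 0.924%, by the authors' edgeR FDR, with 3 at an unadjusted p under 0.05, beside 8.22%. For Snai2 the log2 fold changes in the authors' deposited table were 1.64 (FDR 0.153) in the withoutExon3 line and 2.15 (FDR 0.0588) in the withExon3 line. Side by side with knockdown against control, which has -0.71 and -0.85 for Pdgfra in the authors' deposited table, these comparisons share their controls.

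The fibrillar collagens and Prrx1 could not be followed at these levels. Col1a1 encodes a chain of collagen I, and in the authors' deposited table its levels in control, knockdown and rescue were 0.2, 0.06 and 0.04 RPKM in the withoutExon3 line and 0.03, 0.13 and 0.05 RPKM in the other. Its measures disagree: rescue against control in the withoutExon3 line has an RPKM ratio of 0.2 but a log2 fold change of 0.37 in the authors' deposited table. Col1a2, the other chain of collagen I, was between 0.06 and 0.13 RPKM there. Prrx1, a homeobox factor of limb and craniofacial mesenchyme, was between 0.02 and 0.06 RPKM in the authors' deposited table. None of these 3 genes was called in any of the 9 comparisons.

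Genes of the surrounding pathways were taken from lists, and their called members were counted with the authors' FDR; those named for the line difference were picked after their values were seen. Contractile genes and targets of serum response factor, 23 of them tested, held 3 that were higher in the withExon3 line in control: Actg2, Myl9 and Cald1, with log2 fold changes of 2.45, 2.41 and 1.13 in the authors' deposited table. Of all tested genes, 1.82% were called higher there. Their median was 0.49 in the authors' deposited table, beside -0.01 for all tested genes. After knockdown, 1 of the 23, Actg2, rose in the withoutExon3 line (log2 fold change 0.99, FDR 0.0353, in the authors' deposited table), beside 1.12% of all tested genes. In the withExon3 line 0 passed by the authors' edgeR FDR, beside 3.68% of all tested genes. At an unadjusted p under 0.05, 4 were higher and 2 lower in that line, beside 5.48% and 8.09%. Actb, Tpm4 and Tagln2 were the most abundant genes of this list, with means over the 6 groups of 1670.2, 285.5 and 241.5 RPKM in the authors' deposited table.

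Receptors that bind fibronectin and related matrix, 15 tested, held 4 that were higher in the withExon3 line in control: Itga5, Itga8, Itgb3 and Itga2, all integrin subunits, beside 1.82% of all tested genes. Itgb3, the beta 3 subunit, was at 0.18 RPKM in one line and 10.24 RPKM in the other in the authors' deposited table. Itga5, the alpha subunit of the classical fibronectin receptor, rose after knockdown in both lines, with log2 fold changes of 3.13 and 1.5 in the authors' deposited table. Its RPKM in control and knockdown was 0.72 and 1.46 in the withoutExon3 line and 1.45 and 4.62 in the withExon3 line in the authors' deposited table. In the withoutExon3 line the RPKM values differ by far less than the log2 fold change, so the size of that change is uncertain. Genes of this list also fell after knockdown: Itga1 in the withoutExon3 line (log2 fold change -1.11), and Itga2 and Itgb3 in the withExon3 line (-1.79 and -2.16), in the authors' deposited table. The counts were 1 higher and 1 lower in the withoutExon3 line, beside 1.12% and 1.14% of all tested genes, and 1 higher and 2 lower in the withExon3 line, beside 1.48% and 2.2%. Among the PDGF ligands and receptors, 5 tested, Pdgfa had the highest mean, 7.73 RPKM in the authors' deposited table. Of these 5, Pdgfc was the 1 called higher in the withExon3 line in control, beside 1.82% of all tested genes. It was at 4.76 against 1.3 RPKM in the authors' deposited table. After knockdown 0 of the 5 were called in either line by the authors' edgeR FDR, beside 2.26% and 3.68% of all tested genes. At an unadjusted p under 0.05 the counts were 1 and 0, beside 11.9% and 13.6%.

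The matrix and collagen processing list had 36 tested genes and a median log2 fold change after knockdown of -0.31 in the withoutExon3 line and -0.57 in the withExon3 line in the authors' deposited table. In that list 2 genes fell in the withoutExon3 line, beside 1.14% of all tested genes, and 6 in the withExon3 line, beside 2.2%. By the authors' edgeR FDR 0 rose in either line, beside 1.12% and 1.48% of all tested genes. At an unadjusted p under 0.05, 2 and 1 were higher, beside 5.33% and 5.48%. P4ha1, a subunit of the collagen prolyl hydroxylase, and Loxl3, a lysyl oxidase that crosslinks collagen, fell in both lines. The authors' deposited table lists P4ha1 at 77.71 RPKM in control and 44.2 in knockdown of the withoutExon3 line, and at 58.1 and 33.3 RPKM in the withExon3 line. In the same order, Loxl3 was at 4.41, 2.3, 5.86 and 2.28 RPKM in the authors' deposited table. Between the lines in control, 5 were higher in the withExon3 line, beside 1.82% of all tested genes, and 1, Pcolce, was lower, beside 1.91%. Col6a1 and Col6a2, chains of the microfibrillar collagen VI, were at 17.51 against 0.53 RPKM and at 1.44 against 0 RPKM there, and Col6a2 was listed at 0 in the withoutExon3 line in the authors' deposited table.

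Among 26 tested mesenchymal regulators, 1 rose after knockdown in the withoutExon3 line (Zeb2), beside 1.12% of all tested genes, and 2 in the withExon3 line (Id2 and Id3), beside 1.48%. The most abundant of the list were Tcf4, Tead1 and Zeb2, with means over the 6 groups of 83.19, 26.3 and 24.37 RPKM in the authors' deposited table. Of other factors linked to epithelial to mesenchymal change, chosen after their values were seen, Snai1 stayed at or below 0.08 RPKM, Twist1 was listed at 0 in all groups, and Zeb1 lay between 13.98 and 17.67 RPKM in the authors' deposited table. In control, 2 of the 26 regulators were called higher in the withExon3 line, Zeb2 and Wwtr1, beside 1.82% of all tested genes. By the authors' FDR 0 were lower there, beside 1.91%. Wwtr1, the TAZ coactivator, was at 5.86 RPKM in the withExon3 control against 1.39 RPKM in the other, in the authors' deposited table.

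**Figure D3:**
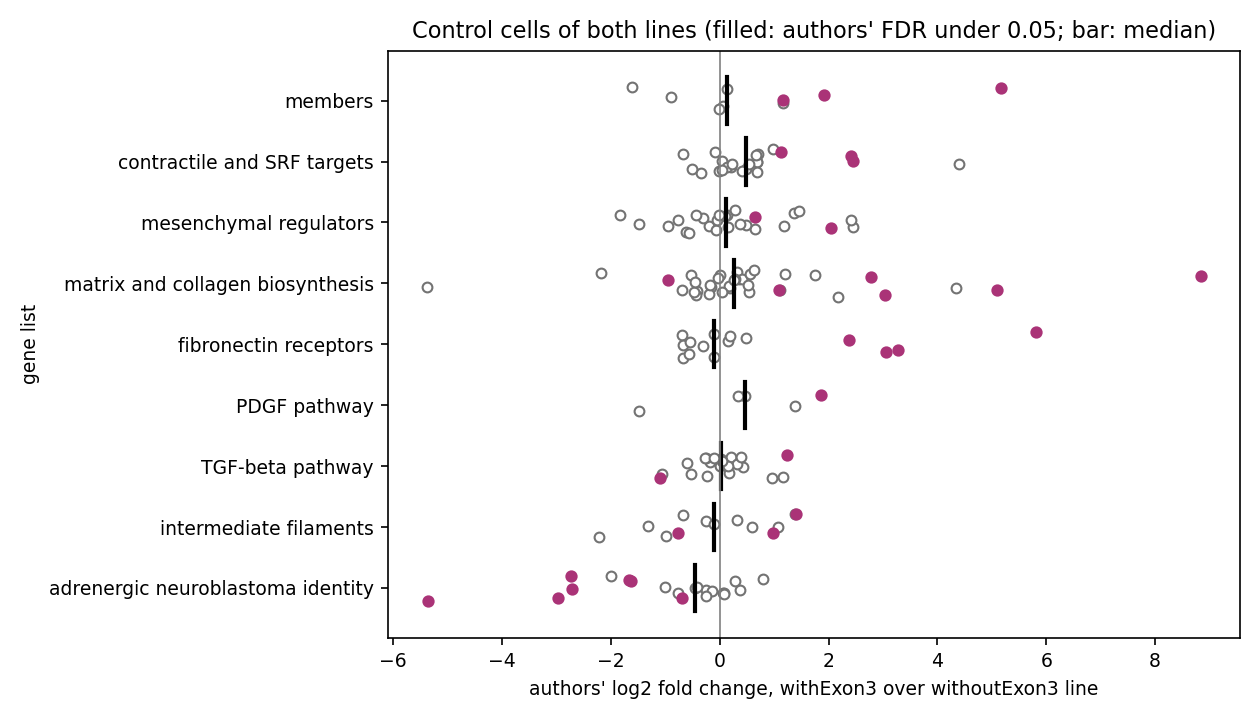
Log2 fold changes between the lines in control cells from the authors' deposited table, 1 point per tested gene by list, with filled points for an FDR under 0.05 and a black bar for the median. The median of the contractile list is at 0.49 and that of the adrenergic list at -0.46.

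Genes most like each expressed member were ranked by Pearson's r of log2(RPKM + 0.1) over the 6 group values, which share their libraries, among 13054 other genes of at least 1 RPKM on average. With 6 points, 86 to 209 genes had an r above 0.95 for each member, so the order among them carries little. For Acta2 the highest were Apol10b, Gm49496 and Rbms2, and for Fn1 they were Msn, Ahsg and Col6a1. For Pdgfra the highest were Sox9, Clcn5 and Gm5577, and for Vim they were Tpcn1, Col4a2 and Slc18a2.

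Splicing was read from the authors' vast-tools table on mm9, which gives a percent per library for each event. It lists 524 events in the 10 genes, of which 172 had a value in any library, 134 had one in all 12 libraries and 4 had a mean between 2% and 98% and entered the test. All 4 lie in Fn1. In limma with Benjamini-Hochberg adjustment over 28980 events, 0 of the 4 were called for knockdown against control (mean of both lines), beside 1.48% of all tested events, and 0 had an unadjusted p under 0.05. For rescue against knockdown, 0 of the 4 were called in the withoutExon3 line, beside 0.00345% of events, and 0 in the withExon3 line, beside 0%, with 0 at an unadjusted p under 0.05 in limma. Between the lines in control, 0 of 4 were called in limma, beside 0%, with 0 at an unadjusted p under 0.05. The authors' own table of 2175 splicing changes holds 0 events of the 10 genes.

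The EDA exon of Fn1 encodes an extra fibronectin repeat that is known from embryonic, wound and tumour fibronectin and is left out of the plasma form made by liver. It was included in most Fn1 transcripts of every library. In the withoutExon3 line the 2 control libraries were at 89.56% and 86.42%, the knockdown libraries at 93.5% and 90.42% and the rescue libraries at 92.59% and 92.59%. In the withExon3 line they were at 89.55% and 90.27%, then 91.79% and 90.41%, then 93.48% and 92.65%. The 4 control libraries were the lowest of the 12, but the margin was small. The highest control library was at 90.27% and the lowest knockdown library at 90.41%. The share of all events that separate in this way is not given here. The mean knockdown difference was 2.58 points ± 1.41 (SE), with an adjusted p of 0.359 in limma, so it did not pass. In the limma fit without a filter on the mean, its unadjusted p was 0.0244 and its adjusted p 0.386. The unadjusted result for EDA thus depends on the fit. The EDB exon of 273 nt, also known from embryonic and tumour fibronectin, was between 98.59% and 100% in the 12 libraries and its mean lay above the range tested.

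The variable region of Fn1, which holds the site for integrin alpha 4 beta 1, is cut to different lengths by its 3′ splice sites. The form with 360 nt of it was between 93.08% and 98.16% in the 12 libraries, the form with 285 nt between 1.84% and 6.15%, and the form with 0 nt between 0% and 1.88%. The lowest value of the longest form was in a knockdown library of the withoutExon3 line, whose other replicate was at 96.37%. The mean knockdown difference was -0.64 points ± 1.31 (SE) for the 360-nt form and 0.68 points ± 0.9 (SE) for the 285-nt form, with adjusted p-values of 0.846 and 0.747 in limma. The intron after EDA, of 1162 nt, was retained at 1.66% to 8.23%, with a knockdown difference of 1.8 points ± 1.31 (SE) and an adjusted p of 0.507 in limma.

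Vim introns were retained at low levels in every library. It has 8 introns with a value, and the 7 with a value in all 12 libraries had means of 0.104% to 1.11%, below the range tested. The shortest, of 80 nt (mm9, chromosome 2, 13500136 to 13500215), was at 0.28% and 0.41% in control, 0.77% and 1.68% after knockdown and 0.43% and 0.78% after rescue in the withoutExon3 line. In the withExon3 line it was at 0.33% and 0.54%, then 0.94% and 1.63%, then 0.81% and 0.76%. All 4 knockdown libraries stood above all 4 control libraries, and the share of all introns that separate in this way is not given here. In the fit without a filter on the mean the difference was 0.865 points, with an unadjusted p of 0.0118 and an adjusted p of 0.286 in limma, so it did not pass. This intron was singled out after its values were seen. Over the 42 introns of Fn1 with a value in all 12 libraries, of 45 with any value, the means ranged from 0% to 3.89%.

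**Figure D4:**
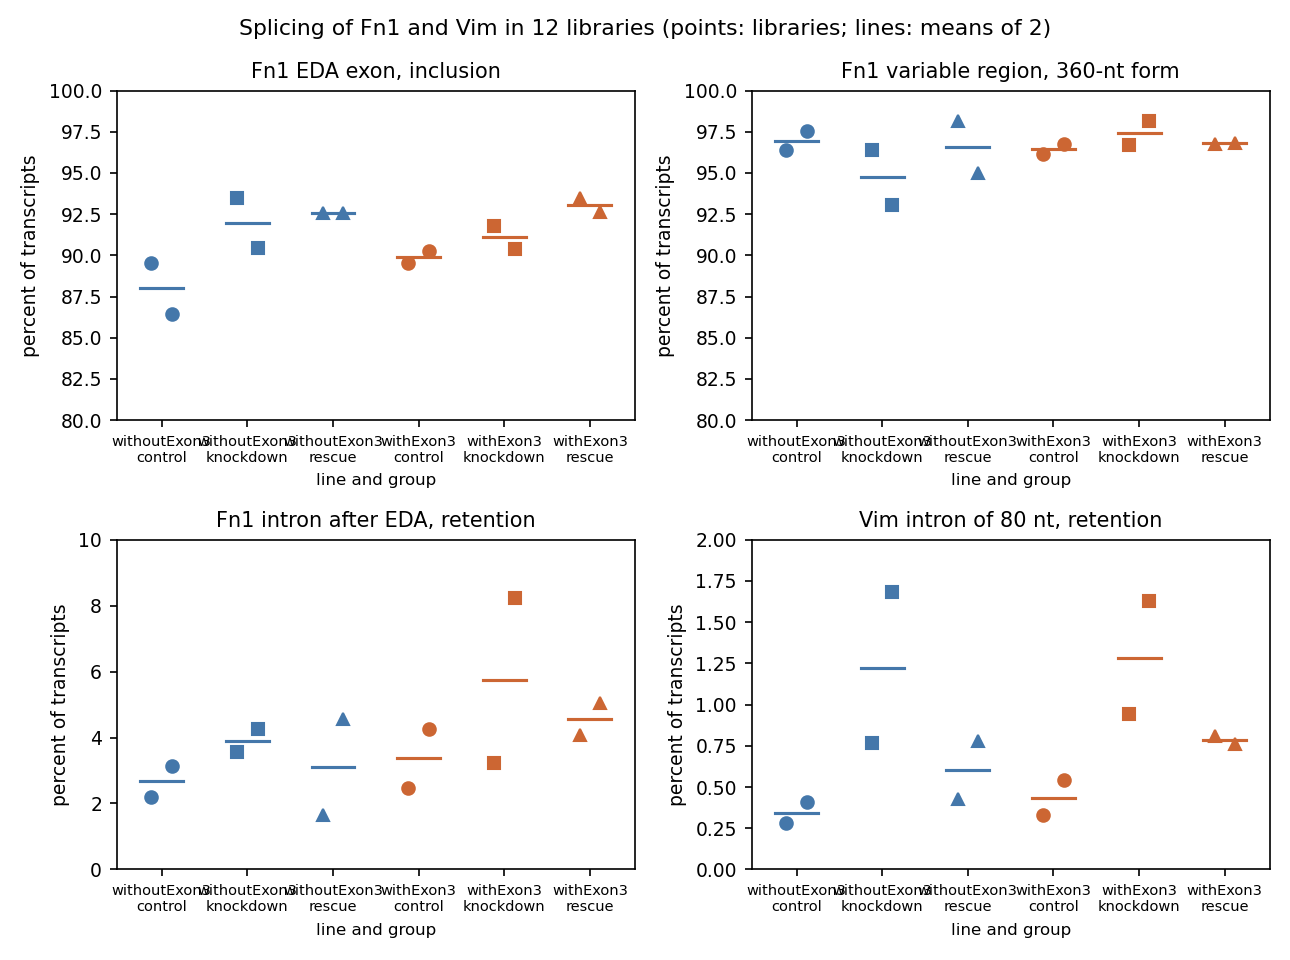
Percent of transcripts in each of the 12 libraries (points) with the mean of 2 replicates (lines), for the Fn1 EDA exon, the 360-nt form of the Fn1 variable region, the Fn1 intron after EDA and the 80-nt Vim intron; the axes of the top panels start at 80%. For EDA the control libraries reach 90.27% and the lowest knockdown library is at 90.41%, and the Vim intron reaches 1.68% at most.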

How the data were processed

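The 10 genes and the gene lists were chosen with earlier results of these data known. The authors' deposited table of gene expression gives 1 RPKM value per group, with log2 fold changes, p-values and FDR values for 9 comparisons. The submitters' processing notes name Salmon 0.14.1, edgeR and mm9, and do not say how replicates were combined. Benjamini-Hochberg values computed again from the deposited p-values lay within 0.00055 of the authors' FDR. The comparisons between lines were added once the table's columns were seen. The second deposited file, per its header from vast-tools on mm9, gives percent values per event and library. These went into limma 3.58.1 (R 4.3.3) with 6 group means and a trended, robust variance. An event entered with all 12 libraries measured and a mean of 2% to 98%, and a call needed an adjusted p under 0.05 and 15 points. The tests were checked on simulated data. No read numbers were given, so depth is unknown. Other list genes were named when called after knockdown in both lines, or else as the 3 most abundant. Sequences are from GENCODE and RefSeq on GRCm38. The number of unused per-sample columns was 0. Some genes of the lists are not reported here.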

Additional observations from a re-analysis of the deposited data

How the results depend on the processing

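The expression table holds 1 value per group, so no library could be left out there and no replicate block fitted. No paired analysis was possible because of that for expression. For splicing, the replicate block kept 0 called events of the 10 genes in each of the 4 comparisons, while it moved the calls over all events for knockdown from 430 to 514. The difference between replicate 1 and replicate 2 was taken per event within each group. These differences correlated between groups at r = 0.0417 to 0.31 over 15 pairs of groups, with a median of 0.149. All were above 0, and whether the replicate numbers pair the libraries was not tested. The main fit holds no replicate block. Leaving out each library in turn gave 0 to 0 called events of the 10 genes, as did the fits with 10 of 12 libraries, no filter on the mean, a logit scale, no trend or 10 points. Over all events the knockdown calls fell to 126 with no filter on the mean, 168 without withoutExon3 control replicate 1, 176 without withExon3 control replicate 1 and 220 without withoutExon3 knockdown replicate 2. At an FDR of 0.1, the called genes numbered 2 for knockdown in the withExon3 line, 1 and 2 for rescue against control in the withoutExon3 line and the withExon3 line, and 3 between lines in rescue. With the adjustment over genes of at least 1 RPKM the last was 2, as Pdgfra passed (adjusted p = 0.0359), and Pdgfra passed for knockdown in the withExon3 line (adjusted p = 0.0448). In that line Snai2 is under 1 RPKM in both groups and left this adjustment, so its knockdown call has no value there and the count stayed at 1 with another gene, while in the withoutExon3 line Snai2 still passed (adjusted p = 0.0363). The shares of all tested genes at an FDR of 0.1 and with this adjustment are not given here. Combining the lines called 3 for knockdown, beside 10.6% of all tested genes, an alternative chosen after seeing the data. A pseudocount of 1 in place of 0.1 RPKM moved 23 of 81 RPKM ratios, all toward 0, and rescaling moved 0. The cause of these changes was not tested. Levels under 1 RPKM and groups of 2 libraries limit what could be called.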

Other observations

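Adrenergic genes mark the other known state of neuroblastoma, and Dbh and Ret were among those lower in the withExon3 line in control by the authors' edgeR FDR. Dbh, the enzyme that makes noradrenaline, was at 0.2 against 8.99 RPKM in control in the authors' deposited table, and the receptor gene Ret was at 28.86 against 90.68 RPKM there. After knockdown Phox2a, a homeobox factor of noradrenergic neurons, rose in each line; the authors' deposited table lists it at 48.97 RPKM in control and 107.7 in knockdown of the withoutExon3 line and at 35.99 and 116.6 RPKM in the withExon3 line.

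In the TGF-beta pathway Acvrl1, a type I receptor, fell after knockdown in each line. For Acvrl1 the authors' deposited table lists 4.99 RPKM in control and 1.59 in knockdown of the withoutExon3 line, then 6.71 and 1.91 RPKM in the withExon3 line. Those named for the difference between lines were picked after their values were seen. Between the lines in control, 1 of the 22 tested genes of this pathway was called higher and 1 lower in the withExon3 line. Of all tested genes, 1.82% were called higher and 1.91% lower there. The 2 pathway genes were Tgfb2, at 7.05 against 2.81 RPKM, and Tgfb3, at 1.22 against 2.61 RPKM, in the authors' deposited table. Among 13 tested intermediate filament genes other than Vim, Nes and Synm were higher in that line in control, beside 1.82% of all tested genes. Nefh was lower there, beside 1.91%. The most abundant of these intermediate filament genes were Prph, Lmnb1 and Ina, with means over the 6 groups of 408, 50.76 and 37.01 RPKM in the authors' deposited table.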
